A study of Mus musculus with 13 samples.

Results

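Cytochrome c oxidase (complex IV) is the last enzyme of the mitochondrial respiratory chain. Its catalytic core is encoded by mitochondrial DNA (mtDNA), and the other subunits are encoded in the nucleus, several of them by paired genes of which one is used in most tissues and the other in particular tissues. The 10 genes described here were chosen by name, as 5 ubiquitous isoforms (Cox4i1, Cox6a1, Cox6b1, Cox7a2 and Cox8a), 4 tissue isoforms (Cox4i2, Cox6a2, Cox6b2 and Cox7a1) and the supercomplex factor Cox7a2l. They are 10 of the 47937 genes in the count table, and all 10 were found there by gene identifier without its version. Cox6a2 was placed among them because its counts had been seen to differ between the genotypes, so that its values are given as a description without a test.

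RNA was sequenced from sorted thymocytes of the double negative (DN) series, at DN3, the stage of β-selection, and at DN4, the stage after it. The mice were 6 weeks old, on a C57BL/6 background, and either WT;Lck-Cre+ (Wt) or Opa1fl/fl;Lck-Cre+ (KO-labelled). Both genotypes therefore carry Cre recombinase, expressed from the Lck promoter in developing T cells. In the KO-labelled mice its target is floxed sequence of Opa1. That gene encodes an inner-membrane fusion protein that shapes the cristae in which complex IV sits. The authors reported less OPA1 protein in lysates of thymocytes that were not split into these stages. The DN3 libraries came from KO45, KO49 and KO51 and from WT05, WT46 and WT48, and the DN4 libraries came from the same 6 mice and from WT40, which makes 13 libraries from 7 mice.

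The libraries held 5926848 to 14148661 counts on genes. Opa1 was counted at 77.0 to 93.8 CPM (counts of a gene in a library of 1000000 counts, with library sizes scaled by the TMM method) in KO-labelled libraries and at 85.1 to 111.8 CPM in Wt libraries, ranges that overlap. A count summed over all exons says nothing of the floxed ones alone, and the genotype is taken from the label. The 5 DN3 markers summed to 2461 to 3266 CPM in DN3 libraries and to 509 to 749 CPM in DN4 libraries, and the 5 T lineage markers summed to 3570 CPM or more in every library. The 4 B cell markers used were all counted in both stages, and they summed to 281 to 418 CPM in DN3 libraries and to 788 to 3715 CPM in DN4 libraries, with a median of 0.588 to 2.34 CPM for Cd79a in DN3 groups and of 223 to 238 CPM in DN4 groups. The 10 most counted genes took 42.5% of all counts in DN3 WT05, against 3.61% to 5.20% in the others. This library also held the fewest counts in total, 5926848, and the fewest of each ubiquitous isoform. Xist was counted 10672 to 20604 times in libraries of 5 mice and 0 to 2 times in those of WT40 and WT46, so that all KO-labelled mice were female by this measure and sex was not balanced between the genotypes.

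As background, the isoform pairs differ in where they are used. COX4I2 is known from lung and from oxygen-dependent regulation, COX6A2 and COX7A1 from heart and skeletal muscle, and COX6B2 from testis, while COX6A1, COX6B1, COX7A2 and COX4I1 are found in most tissues. COX7A2L is related to COX7A2 and takes part in joining complex IV to complex III in respiratory supercomplexes.

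Of the 10 genes, 7 had a promoter sequence in the RefSeq table used (build GRCm38.p6), and those without one were Cox4i1, Cox4i2 and Cox6a2. The 250 bases before the RefSeq start of Cox6b1 and Cox6b2 are shown because this pair of paralogues carries the main difference between the stages. The window of Cox6b1 is chr7:30626115-30626364 on the minus strand and that of Cox6b2 is chr7:4753095-4753344 on the minus strand, both written 5′ to 3′ as transcribed, with matches to the searched motifs in capitals.
Cox6b1: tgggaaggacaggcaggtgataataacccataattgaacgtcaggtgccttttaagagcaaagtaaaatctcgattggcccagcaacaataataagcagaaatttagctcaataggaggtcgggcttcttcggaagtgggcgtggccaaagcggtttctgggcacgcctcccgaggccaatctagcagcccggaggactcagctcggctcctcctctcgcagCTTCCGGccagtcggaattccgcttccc
Cox6b2: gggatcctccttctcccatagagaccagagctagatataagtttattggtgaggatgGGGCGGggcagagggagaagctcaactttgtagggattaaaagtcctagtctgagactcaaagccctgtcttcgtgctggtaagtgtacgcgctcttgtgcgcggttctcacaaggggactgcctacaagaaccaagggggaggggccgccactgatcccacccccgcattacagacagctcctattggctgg
The motifs searched on both strands were GCGCNTGCG for NRF1, CCGGAAG for ETS factors, AAGATGGC for YY1, GGGCGG for SP1 and the E-box CAGCTG. The window of Cox6b1 held 1 ETS match, 28 bases before the RefSeq start, and that of Cox6b2 held 1 SP1 match, 193 bases before the RefSeq start. RefSeq and GENCODE, whose gene coordinates are given further on, place starts differently. The RefSeq start of Cox6b1 lies 37 bases inside the GENCODE gene, so that its ETS match falls within that gene, while for Cox6b2 the starts are the same. The RefSeq start of Cox7a2l lies 2997 bases inside its GENCODE gene, which holds the whole window, and those of the other 4 members lie 0 to 27 bases inside. Among 32536 distinct windows of the same length, 6.95% held the ETS motif, 33.0% the SP1 motif, 5.22% the NRF1 motif, 1.57% the YY1 motif and 13.1% the E-box. The Cox6b1 window had 14 CpG dinucleotides and that of Cox6b2 had 8. Among the other members, the window of Cox6a1 held NRF1, SP1 and ETS matches, in which 2 NRF1 matches overlap, those of Cox7a2 and Cox7a2l held 1 SP1 match each, and those of Cox7a1 and Cox8a held none of the motifs.

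The 5 ubiquitous isoforms and Cox7a2l were the abundant members, and the 4 tissue isoforms were lower. To compare genes with each other, CPM were divided by the length of the merged exons of each gene in kilobases. The median over 13 libraries was 228 CPM per kilobase for Cox6a1, 223 for Cox8a, 186 for Cox6b1, 178 for Cox4i1, 138 for Cox7a2l and 119 for Cox7a2. Each of these 6 overlapped in range with its neighbour in the order, although Cox4i1 was above Cox7a2l and Cox7a2l above Cox7a2 within 13 of 13 libraries. With the length of the principal transcript in place of merged exons, a choice made after seeing the data, Cox4i1 came first with a median of 361 CPM per kilobase and Cox7a2l was above Cox7a2 in 8 of 13 libraries, so the order within the abundant group depends on the length used.

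Below them came Cox6b2 at a median of 15.1 CPM per kilobase, Cox7a1 at 2.61, Cox6a2 at 0.911 and Cox4i2 at 0. The ranges of Cox7a2 and Cox6b2 did not overlap, nor did those of Cox6b2 and Cox7a1. Cox7a1 was above Cox6a2 in 9 of 13 libraries, with overlapping ranges, so these neighbours do not separate beyond their spread. Cox6b2 was the one tissue isoform with 57 or more counts in every library.

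**Figure D1:**
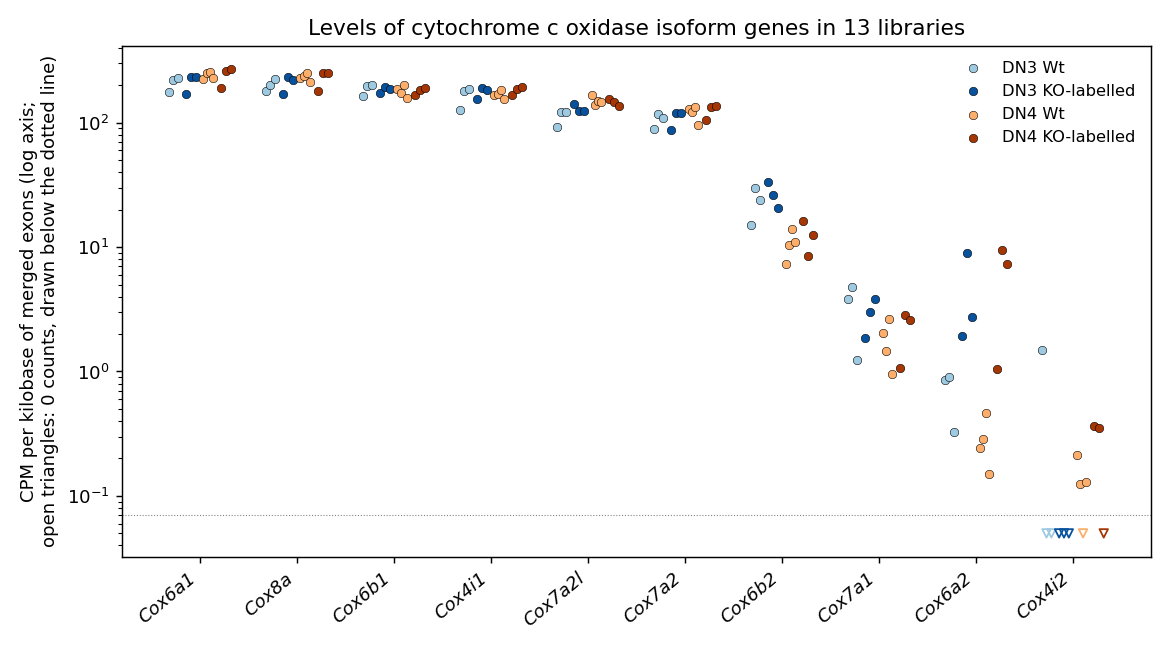
Level of each of the 10 genes in each of the 13 libraries, in CPM per kilobase of merged exons on a log axis, with 1 point per library coloured by stage and genotype and libraries with 0 counts drawn as open triangles below the dotted line. The 5 ubiquitous isoforms and Cox7a2l lie between 87.9 and 269 in every library, Cox6b2 lies between 7.29 and 33.3, and the other tissue isoforms lie below 10.

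Some members share sequence or position with other genes. Cox7a2l (chromosome 17, 83501918 to 83517330, minus strand) shares 19.8% of the 50-base stretches of its principal transcript with the processed pseudogene Gm6969, which had 0 to 15 counts in a library. Cox6a1 (chromosome 5, 115345642 to 115348981, minus strand) shares 12.3% with AC148174.2. Cox4i1 (chromosome 8) shares 14.7% with Emc8, which overlaps it on the opposite strand and had 203 to 637 counts. Cox6a2 (chromosome 7, 128205435 to 128206387, minus strand) shares 3.33% with Itgad on the opposite strand. The sources used here do not give the strand setting of the counting, and without strand, reads of such partners cannot be told apart. Cox6b1 (chromosome 7, 30616861 to 30626151) and Cox6b2 (chromosome 7, 4751792 to 4753094) share no 50-base stretch with the transcripts of another gene.

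Cox6b2 fell from DN3 to DN4 in both genotypes. Its protein is the testis form of COX6B, a subunit on the intermembrane space side of the enzyme where its monomers meet. In Wt mice the DN3 libraries had 16.7 CPM in WT05, 33.2 in WT46 and 26.5 in WT48, and the DN4 libraries had 8.08 CPM in WT05, 11.6 in WT40, 15.5 in WT46 and 12.3 in WT48. In KO-labelled mice the DN3 libraries had 36.9 CPM in KO45, 28.9 in KO49 and 22.9 in KO51, and the DN4 libraries had 18.1, 9.40 and 13.8 CPM in the same order. In each genotype every DN4 library was below every DN3 library. The means were 25.5 ± 8.31 CPM (SD, n = 3) in DN3 and 11.9 ± 3.06 CPM (SD, n = 4) in DN4 of Wt mice, and 29.6 ± 7.07 CPM (SD, n = 3) and 13.8 ± 4.35 CPM (SD, n = 3) in KO-labelled mice.

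The fitted log2 fold change of Cox6b2 was -1.14 in Wt mice (standard error 0.278, adjusted p = 0.0197 in edgeR, quasi-likelihood test, Benjamini-Hochberg adjustment over all genes tested). In KO-labelled mice it was -1.13 (standard error 0.278, adjusted p = 0.0261 by the same test). The interaction of stage and genotype was 0.02 on the log2 scale, with a 95% confidence interval of -0.88 to 0.92. Without the DN3 library of WT05 the change in Wt mice was -1.36 (adjusted p = 0.00864 in edgeR). The call did not hold without DN3 WT46, DN3 WT48 or DN4 WT05 in Wt mice, where the change was -0.90, -1.12 and -0.99 (adjusted p = 0.0834, 0.0615 and 0.0514 in edgeR). Nor did it hold without DN3 KO45, DN3 KO49 or DN4 KO49 in KO-labelled mice, where the change was -0.92, -1.16 and -0.91 (adjusted p = 0.0698, 0.0773 and 0.0613 in edgeR), or in Wt mice when libraries were scaled by their totals, where it was -1.03 (adjusted p = 0.132 in edgeR).

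Of the 9 members that could be tested, 8 passed the filter on low counts and Cox4i2 did not. Cox6b2 was the single member that passed the threshold in either stage comparison, where 22.9% of all genes tested passed in Wt mice (13.4% higher and 9.43% lower in DN4) and 18.6% in KO-labelled mice (11.2% higher and 7.34% lower). With a library left out these shares were 14.4% to 25.7% in Wt and 10.7% to 21.1% in KO-labelled mice, the count of genes falling from 2903 to 1877, 1918 and 1845 without DN3 WT46, DN3 WT48 and DN4 WT05, and from 2338 to 1407, 1458 and 1522 without DN3 KO49, DN3 KO51 and DN4 KO49. Nothing about the members as a group is read from the count of 1 in 8. B cell marker levels also differed between the stages, as given above, and their part in the change of Cox6b2 was not tested. In bulk RNA, fewer cells that express a gene and less RNA per cell cannot be told apart.

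Within each library Cox6b2 can be set against Cox6b1, which needs no scaling between libraries. Cox6b2 made up 12.6% of the counts of the pair in the DN3 library of WT05 (exact binomial 95% interval 9.69% to 16.0%), 19.2% in WT46 and 15.7% in WT48, and 23.1%, 17.3% and 14.7% in KO45, KO49 and KO51. In DN4 libraries it made up 5.77% in WT05, 8.60% in WT40, 9.88% in WT46 and 9.95% in WT48, and 13.3%, 6.76% and 9.30% in KO45, KO49 and KO51. The share was lower in DN4 in each of the 6 mice with both libraries, while over all mice the highest DN4 share, in KO45, lay above the lowest DN3 share, in WT05. The log2 ratio of Cox6b2 to Cox6b1 differed within mice by -1.53 to -0.75, with a mean of -1.06 ± 0.299 (SD, n = 6). This ratio was computed after the values were seen and is a description without a test. Binomial intervals cover counting error only.

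**Figure D2:**
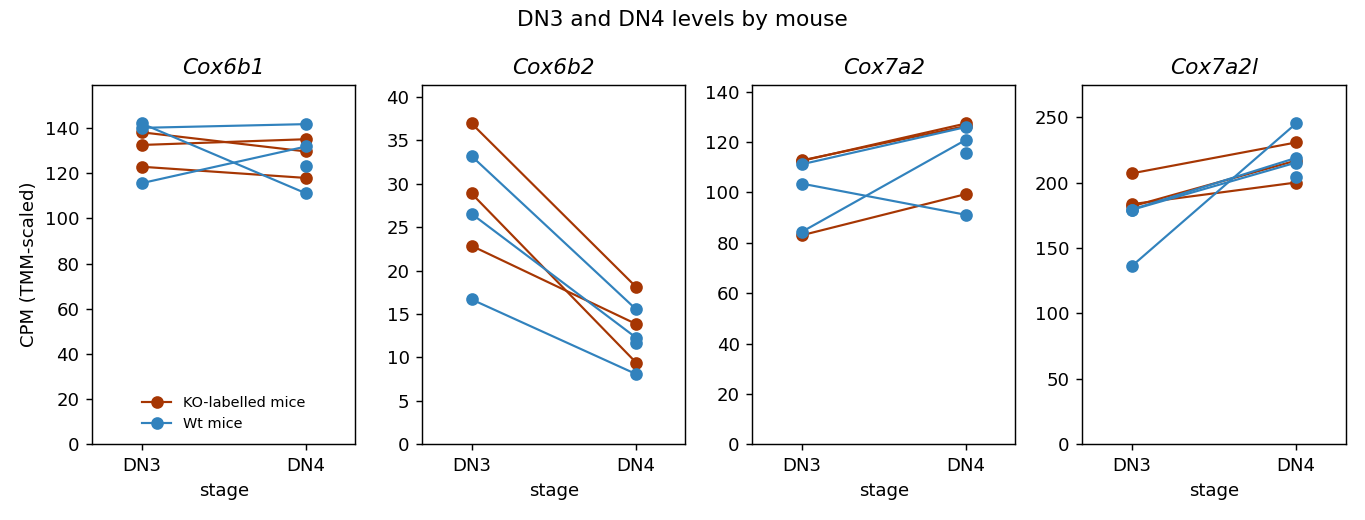
TMM-scaled CPM of Cox6b1, Cox6b2, Cox7a2 and Cox7a2l at DN3 and DN4, with 1 line per mouse, orange for KO-labelled and blue for Wt mice, and a lone point for WT40. Cox6b2 is lower and Cox7a2l higher at DN4 in each of the 6 mice joined by a line, while Cox6b1 goes either way.

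Cox7a1, the muscle form of the COX7A subunit, was counted 5 to 29 times in a library. In Wt mice it had 2.05, 2.57 and 0.661 CPM in the DN3 libraries of WT05, WT46 and WT48 and 1.08, 0.781, 1.42 and 0.507 CPM in the DN4 libraries of WT05, WT40, WT46 and WT48. In KO-labelled mice it had 0.990, 1.60 and 2.06 CPM in DN3 and 0.573, 1.52 and 1.39 CPM in DN4 for KO45, KO49 and KO51. The groups overlap, although each of the 6 mice had the lower value in DN4. The fitted changes were -0.88 in Wt (95% interval -2.13 to 0.38, adjusted p = 0.294 in edgeR) and -0.43 in KO-labelled mice (-1.56 to 0.71, adjusted p = 0.585 in edgeR), neither of which passed. They depend on single libraries, being -0.38 without DN3 WT46 and -1.31 without DN3 WT48 in Wt mice, and -0.12 without DN4 KO45, -0.19 without DN3 KO51 and -0.71 without DN4 KO49 in KO-labelled mice. Set against Cox7a2 within a library, the log2 ratio differed within mice by -1.44 to -0.20, with a mean of -0.78 ± 0.492 (SD, n = 6), again a description without a test. Part of this ratio is Cox7a2, which was higher in DN4 in 5 of the 6 mice.

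Cox7a2l was higher in DN4 within each of the 6 mice with both libraries. The change passed the threshold in Wt mice under some settings only. In Wt mice it had 136, 179 and 179 CPM in the DN3 libraries of WT05, WT46 and WT48, and 245, 204, 219 and 215 CPM in the DN4 libraries of WT05, WT40, WT46 and WT48, so that the stages did not overlap. In KO-labelled mice it had 207, 182 and 184 CPM in DN3 and 231, 217 and 200 CPM in DN4 for KO45, KO49 and KO51, and the stages overlapped. The fitted change in Wt mice was 0.40 (standard error 0.130, 95% interval 0.10 to 0.69, adjusted p = 0.0606 in edgeR), and it passed with DESeq2's Wald test (adjusted p = 0.0222) and with all 13 libraries in one edgeR fit (adjusted p = 0.0188), but not with the mouse as a block (adjusted p = 0.122). In KO-labelled mice the change was 0.15 (standard error 0.113, 95% interval -0.11 to 0.41, adjusted p = 0.391 in edgeR), and it ran from 0.07 without DN4 KO45 to 0.23 without DN3 KO45. The difference between the genotypes was -0.24 (95% interval -0.61 to 0.13, unadjusted p = 0.183 in edgeR, where 0 genes passed after adjustment), so the stage change is not shown to differ between them. Without the DN3 library of WT05, the lowest for Cox7a2l, the change in Wt mice was 0.27 (adjusted p = 0.0819 in edgeR) and the difference between the genotypes was -0.11, against -0.39 with library totals.

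Cox7a2l was also set against Cox7a2, its paralogue within complex IV. The ratio of Cox7a2l to Cox7a2 counts was 1.61, 1.61 and 1.73 in the DN3 libraries of WT05, WT46 and WT48 and 2.50, 1.61 and 1.63 in those of KO45, KO49 and KO51. In DN4 it was 2.03, 1.77, 1.74 and 2.36 in WT05, WT40, WT46 and WT48 and 2.32, 1.72 and 1.57 in KO45, KO49 and KO51. KO45 had the highest ratio of its stage and genotype both times. From DN3 to DN4 the log2 ratio differed by 0.33, 0.11 and 0.45 in WT05, WT46 and WT48 and by -0.10, 0.0896 and -0.0545 in KO45, KO49 and KO51. It was higher in DN4 in 4 of 6 mice, all 3 Wt mice among them, and whether this stage difference differs between the genotypes was not tested. Over all mice the mean was 0.14 ± 0.216 (SD, n = 6, exact two-sided sign-flip permutation p = 0.219, adjusted p = 0.656 over the 3 tests of this ratio). Between the genotypes it differed by -0.09 in DN4 (exact permutation p = 0.629, adjusted p = 0.700, where the smallest possible unadjusted p is 0.0571) and by 0.18 in DN3 (exact permutation p = 0.700, adjusted p = 0.700, where the smallest possible unadjusted p is 0.100), so neither genotype comparison could have reached 0.05. With a library left out these differences ran from -0.26 to 0.0268 in DN4 and from -0.0267 to 0.29 in DN3, so their directions were not stable.

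The 5 ubiquitous isoforms did not pass the threshold in any comparison. COX4I1 spans the inner membrane and is among the first nuclear subunits to join the core, COX6A1 and COX8A are small membrane subunits, and COX6B1 faces the intermembrane space. From DN3 to DN4 their fitted changes ran from -0.09 to 0.18 in Wt mice (median 0.16, against -0.03 for all genes) and from -0.06 to 0.18 in KO-labelled mice (median 0.11, against -0.02). The outer bounds of their 95% intervals were -0.37 and 0.49 in Wt and -0.30 and 0.55 in KO-labelled mice. Cox4i1, for example, had 253 ± 51.1 CPM in DN3 and 261 ± 17.6 CPM in DN4 of Wt mice (SD, n = 3 and 4), and Cox6b1 averaged 133 and 127 CPM, with SDs of 14.7 in DN3 and no larger in DN4. Cox6a1 had 146 ± 18.9 and 168 ± 11.2 CPM, Cox8a 124 ± 13.4 and 143 ± 9.08 CPM, and Cox7a2 99.6 ± 13.8 and 113 ± 15.5 CPM in the same groups.

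**Figure D3:**
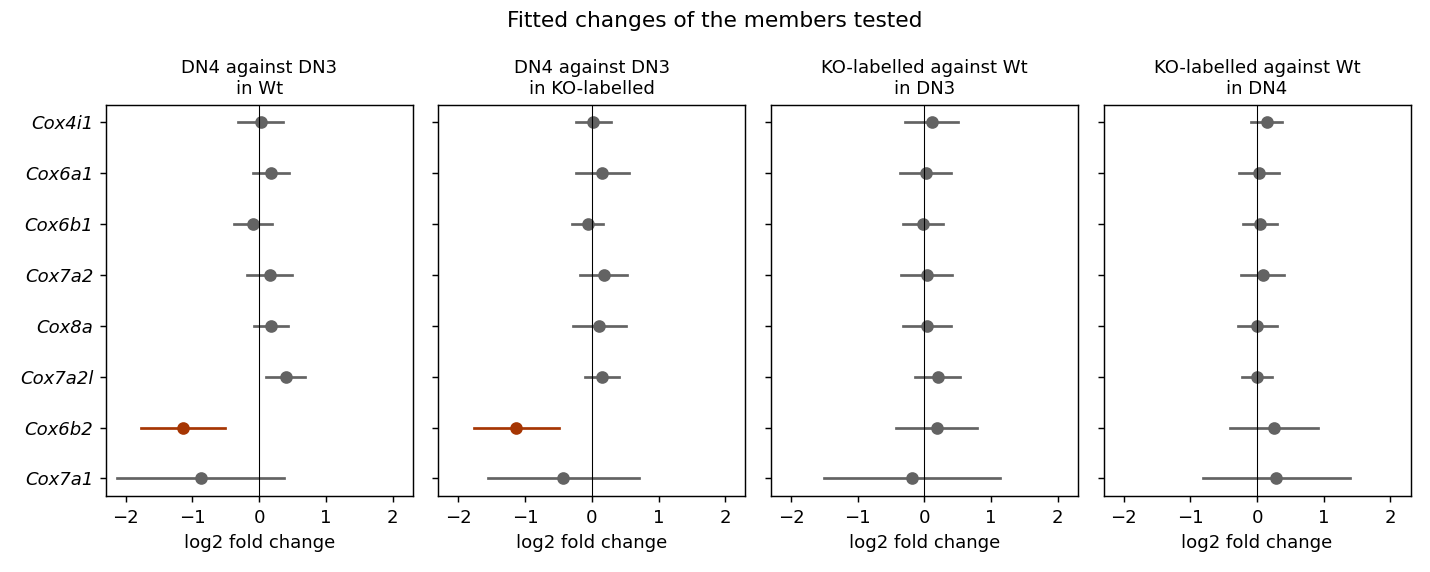
Fitted log2 fold change of the 8 members tested in 4 comparisons, as points with 95% confidence intervals, orange where the adjusted p from edgeR was under 0.05. Cox6b2 stands at -1.14 and -1.13 in the stage comparisons, and no member is orange in the genotype comparisons.

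Between the genotypes none of the 8 members tested passed the threshold in either stage. In DN4, 0.0535% of all genes tested passed (7 of 13084, all lower in KO-labelled libraries). With a DN4 library left out the count was 0 in 5 of 7 fits, namely without KO49, KO51, WT05, WT40 or WT46, and was 2 without KO45, both higher in KO-labelled libraries, and 8 without WT48, all lower. DESeq2's Wald test called 7 genes higher and 44 lower, and the single fit of all 13 libraries 1 higher and 4 lower. In DN3 the share was 0% in edgeR, with 168 of 12105 genes at an unadjusted p under 0.05 and 3 genes passing in DESeq2. None of the 8 members had an unadjusted p under 0.05 in either comparison, and 0 passed in DESeq2. The ubiquitous isoforms differed by 0.00 to 0.14 on the log2 scale in DN4 (outer bounds of the 95% intervals -0.29 and 0.41) and by -0.02 to 0.11 in DN3 (-0.36 and 0.51). Cox7a2l differed by 0.00 in DN4 (95% interval -0.23 to 0.23) and by 0.20 in DN3 (-0.14 to 0.54), which was 0.0895 without DN3 WT05 and 0.40 with library totals. Cox6b2 differed by 0.25 in DN4 (-0.40 to 0.91) and by 0.18 in DN3 (-0.42 to 0.79), and Cox7a1 by 0.29 in DN4 (-0.81 to 1.39) and -0.19 in DN3 (-1.51 to 1.14). With a library left out the DN4 difference of Cox7a1 ran from 0.05 without KO49 to 0.62 without KO45. Its DN3 difference ran from -0.61 to 0.34. Those of Cox6b2 ran from -0.0148 to 0.48 in DN4 and from -0.0164 to 0.42 in DN3, so these directions were not stable. For the interaction of stage and genotype the share of all genes that passed was also 0%, with 480 of 13361 genes at an unadjusted p under 0.05 and 2 passing in DESeq2, and 0 of the 8 members passed in edgeR or DESeq2.

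Cox6a2, the form of COX6A known from heart and skeletal muscle, was chosen for its genotype pattern, and the following values describe that choice. At DN3 there were 16, 46 and 19 counts for KO45, KO49 and KO51, or 1.32, 6.12 and 1.86 CPM, and 2, 7 and 2 counts in WT05, WT46 and WT48, or 0.585, 0.619 and 0.220 CPM. At DN4 the counts were 10, 94 and 50 in the same mice, or 0.716, 6.50 and 4.98 CPM, and 2, 2, 4 and 1 counts in the Wt mice WT05, WT40, WT46 and WT48, or 0.167, 0.195, 0.316 and 0.101 CPM. In both stages each KO-labelled library was above each Wt library, KO49 was the highest and KO45 the lowest of the KO-labelled libraries, and the highest was 9.08 times the lowest in DN4. Summed over libraries, KO-labelled cells had 5.87 times the Wt level in DN3 and 19.9 times in DN4. Without KO49 the ratios were 3.39 and 12.4. These ratios describe a gene chosen for this difference, and counts summed over mice hide the spread between mice.

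Cox6a2 stayed a minor part of its pair in every library. Its share of Cox6a1 and Cox6a2 counts was 1.09%, 3.59% and 1.13% in DN3 and 0.530%, 3.47% and 2.57% in DN4 of KO45, KO49 and KO51. In Wt libraries it was 0.138% to 0.468% in DN3 and 0.0635% to 0.176% in DN4. Between the stages, Cox6a2 went from 1.32 to 0.716 CPM in KO45, from 6.12 to 6.50 CPM in KO49 and from 1.86 to 4.98 CPM in KO51, with no common direction. In the Wt mice it went from 0.585 to 0.167 CPM in WT05, from 0.619 to 0.316 CPM in WT46 and from 0.220 to 0.101 CPM in WT48, lower in DN4 in each, on 1 to 7 counts a library. Itgad, on the opposite strand, had 10 to 22 counts in KO-labelled and 3 to 21 in Wt DN3 libraries, and 14 to 36 and 8 to 38 in DN4 libraries, ranges that overlap between the genotypes. The 5 striated muscle markers summed to 6.75 CPM or less in every library, with Actc1 at 0 in all of them, and in DN4 they summed to 3.09 to 6.09 CPM in KO-labelled and 4.65 to 6.75 CPM in Wt libraries. The 5 plasmacytoid dendritic cell markers summed to 28.0 to 68.5 CPM in KO-labelled and 54.8 to 77.5 CPM in Wt DN4 libraries, most of it Pacsin1 and Tlr7, and in DN3 Siglech, Klk1 and Cd209d were at 0.

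**Figure D4:**
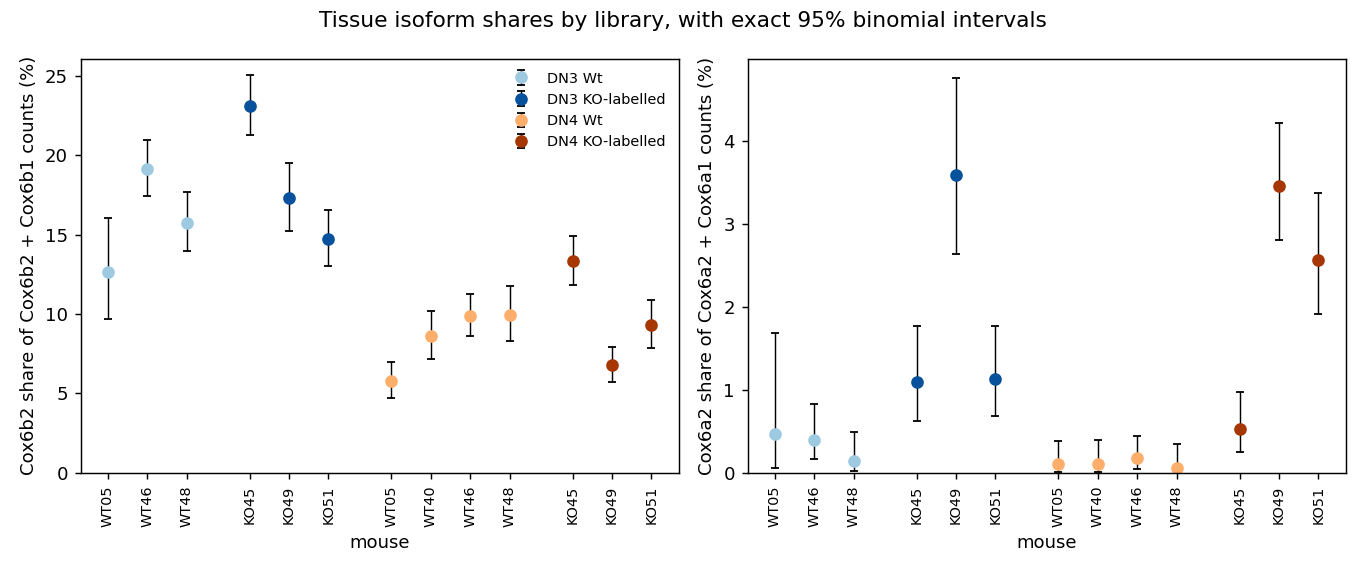
Cox6b2 as a percentage of Cox6b2 and Cox6b1 counts (left) and Cox6a2 as a percentage of Cox6a2 and Cox6a1 counts (right), with 1 point per library and exact 95% binomial intervals. The Cox6b2 share is lower in DN4 than in DN3 of each of the 6 mice with both libraries. The Cox6a2 share reaches 3.59% in KO-labelled and 0.468% in Wt libraries.

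Cox4i2, the isoform of the COX4 subunit known from lung, was at the limit of detection. It had 0 counts in 7 libraries and 1 to 4 counts in the other 6, the highest level being 1.17 CPM from 4 counts in the DN3 library of WT05. Where it had 0 counts, its share of Cox4i1 and Cox4i2 counts could have been up to 0.0836% to 0.135%, the share that 3 counts would give. No fold change is given for it. The tissue isoforms Cox7b2, Cox8b, Cox8c and Ndufa4l2, which are not among the 10, had 0 counts in all 13 libraries.

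Of 6 other nuclear subunits (Cox5a, Cox5b, Cox6c, Cox7b, Cox7c and Ndufa4), 0 passed in any of the 5 comparisons, of which the stage comparisons called 22.9% of all genes in Wt and 18.6% in KO-labelled mice. Their median change from DN3 to DN4 was -0.04 in Wt mice and -0.16 in the KO-labelled, and their median difference between the genotypes was 0.08 in DN4 and 0.13 in DN3. Of 26 assembly factors, 25 could be tested, and 1 passed, in the Wt stage comparison, where 9.43% of all genes tested passed as lower in DN4. It was Lrpprc, a protein that stabilises mitochondrial mRNA, which fell from DN3 to DN4 in Wt mice by 0.58 on the log2 scale (standard error 0.141, adjusted p = 0.0188 in edgeR). In KO-labelled mice its change was -0.46 (standard error 0.169, adjusted p = 0.103 in edgeR), the interaction of stage and genotype was 0.12 (95% interval -0.38 to 0.62), and the change is not shown to differ between the genotypes. The direction of that interaction was not stable, at -0.0179 without DN3 WT05, 0.27 without DN4 KO45 and -0.12 with library totals. With the mouse as a block the change was -0.57 in Wt (adjusted p = 0.0544 in edgeR) and -0.49 in KO-labelled mice (adjusted p = 0.00218 in edgeR), so that the call was lost in Wt and gained in KO-labelled mice. The Wt change was -0.61 without DN3 WT48 and -0.59 without DN4 WT05 (adjusted p = 0.0527 and 0.0547 in edgeR), and -0.34 with library totals (adjusted p = 0.387 in edgeR).

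Among the 3 mtDNA-encoded subunits, mt-Co1, the catalytic core, was lower in KO-labelled than in Wt DN4 libraries, by -1.40 (standard error 0.127, adjusted p = 0.0220 in edgeR), and fell from DN3 to DN4 in KO-labelled mice by 0.70 (standard error 0.150, adjusted p = 0.0157 in edgeR). The genotype call in DN4 was lost when any DN4 library other than WT48 was left out, with differences of -1.48 to -1.36 and adjusted p = 0.0142 to 0.180 in edgeR over the 7 fits, and in the single fit of all 13 libraries, where the difference was -1.43 (adjusted p = 0.453 in edgeR). It held with DESeq2's size factors, library totals and no filter (adjusted p = 0.0208, 0.0227 and 0.00287 in edgeR) and with DESeq2's Wald test (adjusted p = 2.79e-28). In DN3 mt-Co1 differed between the genotypes by -0.94 (unadjusted p = 0.0448 in edgeR, not passing after adjustment), and by -1.18 without DN3 WT48 and -0.33 without DN3 WT05. The stage call in KO-labelled mice held with each library left out (adjusted p = 0.0160 to 0.0494 in edgeR) and was lost in the single fit, where the change was -0.67 (adjusted p = 0.144 in edgeR). In Wt mice the change was -0.20 (adjusted p = 0.735 in edgeR), and it was 0.40 without DN3 WT05 and 0.18 with library totals. The interaction was -0.50 (95% interval -1.40 to 0.40, unadjusted p = 0.254 in edgeR). It depends on single DN3 libraries, being -1.09 without WT05 (adjusted p = 0.802 in edgeR), -0.29 without WT46 and -0.26 without WT48, and it was -0.89 with library totals. It did not pass in any of these fits, so mt-Co1 is not shown to change differently between stages in the 2 genotypes, nor between genotypes in the 2 stages. mt-Co1 shares 51.1% of its 50-base stretches with nuclear pseudogenes, mt-Co3 99.9% and mt-Co2 all of them, and mt-Co2 and mt-Co3 had 4 to 41 counts in a library, so their counts are uncertain. Whether the nuclear isoforms and mt-Co1 differ in their response to genotype was not tested.

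The genes whose levels followed Cox6a2 most closely over the 13 libraries, by Pearson's r of log2 CPM among 13361 genes, were Asns (0.96), Slc7a3 (0.92) and Atf5 (0.85), and 5 genes had an r over 0.8. Asns had 49 to 88 counts in KO-labelled and 5 to 11 in Wt DN3 libraries, and 33 to 163 and 4 to 9 in DN4 libraries, with KO49 again the highest of its group. The genes most like Cox7a2l were Tmem71 (0.97), Kctd12b (0.97) and Cd9 (0.96), and 715 genes had an r over 0.8. These correlations are descriptions, since libraries of 1 mouse share their source and libraries of 1 stage or genotype share that condition. DN3 WT05 was the lowest library for Cox7a2l, at 136 CPM, and for the genes most like it. There Tmem71 had 3.22 CPM, Kctd12b 0 and Cd9 1.17 CPM. How far those correlations rest on that library was not tested.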

How the data were processed

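RNA of sorted DN3 and DN4 thymocytes was sequenced in 13 libraries from 7 mice. The authors prepared stranded mRNA libraries, used Cutadapt for trimming and STAR for mapping, and deposited the featureCounts output, whole-number counts for 47937 genes with no normalization; the processing notes name mm10, and the annotation and the strand setting are not given in the sources used here. Each column was joined to a sample by its label, with 0 columns unused. Symbols, coordinates and exon lengths come from GENCODE M21 on GRCm38, where 47224 identifiers were found without their version.

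For every comparison, the 2 groups concerned (all 4 for the interaction) were fitted over all genes in edgeR 4.0.16 under R 4.3.3. Low genes were dropped by filterByExpr (minimum count 10), sizes were scaled by TMM, and the quasi-likelihood p was adjusted after Benjamini and Hochberg over all genes tested, at a threshold of 0.05. Levels are CPM on TMM-scaled library sizes, per kilobase of merged exons where genes are compared. The ratio of Cox7a2l to Cox7a2 within a library was tested by exact permutation in SciPy 1.17.1 and adjusted over its 3 tests; the ratios of Cox6b2 and Cox7a1, added after the values were seen, were not tested. Depth ran from 5926848 to 14148661 counts, so that tissue isoforms with few counts are imprecise.

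The members, the lists and the genes named were chosen with earlier results of these data known: the 10 isoform genes, Opa1, up to 3 genes a direction with the smallest p among the called genes of other complex IV lists, and the 3 genes most correlated with Cox6a2 and with Cox7a2l (log2 CPM with a prior count of 2). Xist, genes sharing sequence with members and the markers are shown beside the results they touch. A marker of the B cell list is not reported here. Marker lists not named in the results were those of later thymocytes, stroma, erythroid and myeloid cells. In that order they summed to 53.1 to 108 CPM in DN3 and 443 to 2474 CPM in DN4, 51.8 to 104 and 15.6 to 29.0 CPM, 0 to 1.42 and 1.10 to 5.68 CPM, and 3.80 to 13.0 and 0.797 to 5.78 CPM. The stroma sum in DN3 was mostly Pdgfrb, with means of 65.3 CPM in Wt and 70.6 CPM in KO-labelled libraries. Rgs5, Col1a2 and Col3a1 were counted only in DN4 libraries. The myeloid sum in DN3 was mostly Lyz2, with means of 8.71 CPM in Wt and 10.3 CPM in KO-labelled libraries, and Cd14 was not counted there.

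The alternatives were DESeq2 1.42.0 size factors, library totals, no filter beyond 1 count, DESeq2's Wald test, a single fit of all 13 libraries, leaving out each library, and the mouse as a replicate block. The mice pair the stages: departures from the group mean at DN3 and at DN4 correlated within a mouse at 0.124 to 0.460 over 13361 genes, in the 6 mice with both. Libraries of a group differed beyond sampling noise (chi-squared over degrees of freedom of 6.19 or more).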

Additional observations from a re-analysis of the deposited data

How the results depend on the processing

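The count of 1 called member between the stages in Wt mice was 0 with library totals and 2 with DESeq2's Wald test and with all 13 libraries in one fit, where Cox7a2l was the second, and 0 to 1 when a library was left out. In KO-labelled mice it was 0 to 1 when a library was left out. With the mouse as a replicate block it stayed at 1 in both genotypes, with Cox6b2 at -1.11 (adjusted p = 0.00538) and -1.16 (adjusted p = 0.00137) in edgeR, and the block changed no other call of a member. Over all genes, the block moved the count in KO-labelled mice from 2338 to 4899. Library totals moved the Wt count from 2903 to 1782 and its split from 1706 higher and 1197 lower to 1386 and 396, and moved the median of all genes from -0.03 to 0.16 there and from -0.00531 to 0.23 between the genotypes in DN3, where the ubiquitous isoforms had a median of 0.23. DESeq2 called 51 genes and the unfiltered fit 11 between the genotypes in DN4, against 7. 0 members passed between the genotypes or for the interaction under every alternative run.

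Directions of small differences were not stable. Cox7a2l between the genotypes in DN4 was -0.0135 with DESeq2's size factors, -0.0134 with its Wald test, -0.0162 without the filter and -0.0337 in the single fit, and -0.0640 to 0.0635 with a library left out. Cox7a1 between the genotypes in DN3 was 0.0484 with library totals and -0.61 to 0.34 with a library left out. Cox6b2 was -0.0148 to 0.48 in DN4 and -0.0164 to 0.42 in DN3 with a library left out, and its interaction was -0.10 with library totals, -0.0341 with the mouse as a block and -0.23 to 0.24 with a library left out. The log2 ratio of Cox7a2l to Cox7a2 between the genotypes was -0.26 to 0.0268 in DN4 and -0.0267 to 0.29 in DN3. The cause was not tested.

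With a mouse left out, the ratio differences within mice were -1.12 to -0.96 for Cox6b2, -0.90 to -0.65 for Cox7a1 and 0.07 to 0.18 for Cox7a2l, where 5 mice cannot give a p below 0.0625. Without the pairing they were -1.07, -0.83 and 0.12 (for Cox7a2l, exact permutation p = 0.392). Levels of members moved by less than the SD of their group in 79 rescalings, and by more in 1 (Cox6b1 in KO-labelled DN3, library totals). Counts of 29 or fewer in every library limit what can be said of Cox7a1, and counts of 4 or fewer of Cox4i2.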
